A study of Rattus norvegicus with 58 samples.

Results

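The genes described here encode the core of blood coagulation and its brakes: protein C (Proc), protein S (Pros1), thrombomodulin (Thbd), antithrombin (Serpinc1), tissue factor pathway inhibitor (Tfpi), prothrombin (F2) and coagulation factors V, VII, IX and X (F5, F7, F9, F10). The 10 genes were chosen with earlier results of these data known. They were taken from the array by name, as the probe sets annotated with 1 of these 10 symbols and no other. This found 12 probe sets for 9 of the 10 genes, out of 31099 probe sets in all, of which 20826 carried a single symbol and named 14217 genes. No probe set carried the symbol F7 in the annotation used, so F7 was not analysed here.

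Male Harlan Sprague-Dawley rats received 4-methylcyclohexanemethanol (MCHM), an alicyclic alcohol used to wash coal, by gavage for 5 days. Total RNA of liver and of kidney was hybridised to Affymetrix rat genome arrays, each array giving a log2 signal per probe set. Each organ had 4 arrays at each of 0.1, 1, 10, 100, 300 and 500 mg/kg, and 5 control arrays at 0 mg/kg, labelled as biological replicates. No genotype or second treatment is named in the labels, and the sources used here give no age for the animals.

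Coagulation factors circulate as inactive zymogens or cofactors, most of them secreted by hepatocytes. Tissue factor with factor VIIa starts the cascade, factor IXa and factor Xa with their cofactors amplify it, and thrombin, made from prothrombin, turns fibrinogen into fibrin. Several brakes act on it. Tfpi, made largely by endothelium, blocks factor Xa and the tissue factor complex. Antithrombin blocks thrombin and factor Xa. Thrombin bound to endothelial thrombomodulin activates protein C, which with protein S destroys factors Va and VIIIa. In the liver the hepatocyte factors HNF1, HNF4 and C/EBP are well known drivers of these secreted proteins.

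The sequence just upstream of the annotated start is shown for F9 and F10, the members at array background in kidney, and for F2, the member with the widest gap among those measured in both organs. It comes from RefSeq (build GRCr8), covers the 250 bases before the start on the gene's strand, and carries searched motifs in capitals. F9 lies at chrX:143388392-143388641 (+), F10 at chr16:83190281-83190530 (−) and F2 at chr3:98065247-98065496 (−).
F9: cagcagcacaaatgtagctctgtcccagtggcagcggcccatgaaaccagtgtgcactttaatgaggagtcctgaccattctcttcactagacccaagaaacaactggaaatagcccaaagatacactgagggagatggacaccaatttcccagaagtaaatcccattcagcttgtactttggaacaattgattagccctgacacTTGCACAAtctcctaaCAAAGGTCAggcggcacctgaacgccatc
F10: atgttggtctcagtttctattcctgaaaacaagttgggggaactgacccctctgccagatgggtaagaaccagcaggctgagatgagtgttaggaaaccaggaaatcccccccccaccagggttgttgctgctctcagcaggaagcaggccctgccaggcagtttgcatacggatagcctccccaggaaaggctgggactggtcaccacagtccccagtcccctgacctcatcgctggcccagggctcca
F2: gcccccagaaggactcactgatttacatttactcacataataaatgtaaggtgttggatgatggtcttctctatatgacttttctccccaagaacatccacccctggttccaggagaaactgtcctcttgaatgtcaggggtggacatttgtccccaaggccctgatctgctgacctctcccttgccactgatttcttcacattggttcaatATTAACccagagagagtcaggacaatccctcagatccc

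Both strands were searched for an HNF1 core (GTTAAT), an HNF4 site (CAAAGGTCA), a C/EBP site (TTGCNNAA) and a TATA box (TATAAA), motifs chosen after the sequences had been read. Windows for 9 of the 10 members (all but Thbd) gave 10 stretches, as Tfpi has 2 listed starts. F9 held a C/EBP match and, nearer the start, an HNF4 match, and each motif was in 2 of the 10 member windows, with F7 as the other holder of HNF4 letters and Serpinc1 of C/EBP letters. In people, changes at such sites beside the F9 start cause haemophilia B Leyden. Across 33469 windows of the same length 0.376% held the HNF4 letters and 9.22% the C/EBP letters. The HNF1 letters stood in 6.45% of windows and in 3 of the 10 member windows, those of F2, Proc and 1 of the 2 Tfpi starts. F10 held none of the 4 motifs, and the TATA letters, present in 12.9% of windows, were in 0 of the 10. The motifs do not overlap each other in these windows.

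The windows of Proc and Tfpi lie partly or wholly inside the annotated gene spans, so only the 30 bases around the HNF1 letters are shown, because these 2 genes carry the dose results below. The Proc stretch is chr18:24048962-24048991 (−) and the Tfpi stretch chr3:89980811-89980840 (−), each with the motif in capitals. A match describes letters only.
Proc: tgtgggttatggATTAACctgactcccaga
Tfpi: tctttgatacctATTAACtctctaactttt

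Before the results, 3 kidney arrays stood apart. Replicate 2 of the kidney controls carried hepatocyte transcripts, with albumin (Alb) at 10.19 log2 units against a median of 4.70 over the other kidney arrays outside these 3. Replicate 3 of the 300 mg/kg kidneys and replicate 3 of the 500 mg/kg kidneys carried adipose transcripts, with Ucp1 at 13.80 and 12.41 against a median of 4.59. Proc and the other kidney members are given with all arrays and then without these. In liver the 6 hepatocyte markers on the array summed to 109411 to 111803 signal units at 500 mg/kg, against 111855 to 117746 in controls, with 5 of the 6 below control and 1, Apoa1, called lower (−0.30, adjusted p = 0.0245). In kidney the 5 proximal tubule markers summed to 20987 to 24541 units at 500 mg/kg and 16977 to 24049 in controls.

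In rats given no MCHM, 7 members gave a signal above the filter in both organs. Of these, 5 were higher in liver than in kidney and 2, Tfpi and Thbd, were lower, each passing the test (limma, Benjamini-Hochberg adjusted p under 0.05). A pass is common here: 77.2% of the 11801 genes tested were called (35.7% higher in liver and 41.5% lower), and 76.1% of the 10659 above the filter in both organs. F9 and F10 entered through liver alone, where they are high, so their pass was set by the filter and is not counted. The sources used here do not say if both organs went through 1 normalization, which bears on every difference between them.

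**Figure D1:**
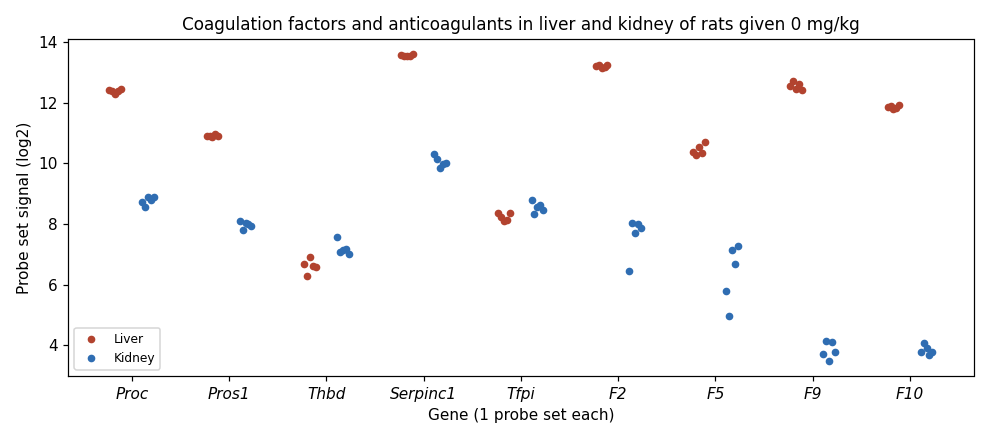
Probe set signal (log2) of each member on the 5 liver and 5 kidney arrays of rats given 0 mg/kg, with a point per array. F9 and F10 lie near 4 in kidney, at array background, and Tfpi and Thbd are the members whose mean is higher in kidney.

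Factor IX and factor X, vitamin K-dependent zymogens, were above background in liver only. F9 read 12.55, 12.69, 12.43, 12.61 and 12.41 in control livers, against 3.71, 4.12, 3.49, 4.11 and 3.77 in control kidneys. In kidney, F9 and F10 were above the 40th percentile of their array on 0 of 29 arrays, so their kidney signal is background and their gaps are lower bounds. Set against the 40th percentile of the control kidneys, a mean of 4.67, the liver means of 12.54 and 11.85 were at least 7.87 log2 units higher for F9 and at least 7.19 for F10. The kidney control array with hepatocyte transcripts gave F9 at 4.12, with another control kidney at 4.11.

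Prothrombin was 5.59 (SE 0.16) log2 units higher in liver and factor V 4.08 (SE 0.28). Protein C was 3.60 (SE 0.07) higher, antithrombin 3.51 (SE 0.18) and protein S 2.93 (SE 0.08). These 5 were above the filter on 28 or 29 of the 29 kidney arrays, so the kidney gave a readable signal for each. Without the control kidney array of hepatocyte transcripts all 7 differences were still called, with factor V at 3.72 and Tfpi at −0.37. In bulk tissue, fewer cells of a type and less RNA per cell cannot be told apart.

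Tfpi and Thbd ran the other way. Endothelial markers summed to 3341 to 3840 units in control livers and 1930 to 2353 in control kidneys. Each sum took the brightest probe set per marker within its own organ. The sums therefore do not compare endothelial content between organs, and the part of these cells was not tested. Tfpi was 0.31 log2 units lower in liver (SE 0.08, adjusted p = 0.000637) and Thbd 0.58 lower (SE 0.14, adjusted p = 0.000194). Control livers had Thbd between 6.30 and 6.92, against 7.02 to 7.55 in control kidneys, with no overlap. For Tfpi the organs overlapped. A second Tfpi probe set read the other way, with 6.53 ± 0.10 in liver and 6.30 ± 0.11 in kidney (SD, n = 5 each), and with the mean over both probe sets Tfpi was no longer among the calls.

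The question put to the dosed rats was whether any of these transcripts followed the MCHM dose. The members were chosen with earlier results of these data known. Their counts called, in either organ, are therefore no fair test against the shares over all genes, which are given for scale. In liver, 1 of 9 members fell at 500 mg/kg, Tfpi, and 0 rose. Over all 11275 genes tested, 0.958% were called, 0.47% lower and 0.488% higher. At 0.1, 1, 10 and 100 mg/kg 0 members were called, and 0% of all genes were. At 300 mg/kg 0 members were called against 0.0266% of all genes (0.00887% lower and 0.0177% higher). The 36 member differences at 0.1 to 100 mg/kg ran from −0.10 (F5 at 10 mg/kg) to 0.20 (Thbd at 100 mg/kg). At an unadjusted p under 0.05 the members counted 0 at each of the doses up to 300 mg/kg, and 3 at 500 mg/kg (Tfpi, Proc and F9), where 13.9% of all genes did so.

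Tfpi is the inhibitor of the tissue factor pathway. The livers at 500 mg/kg read 7.70, 7.92, 7.91 and 7.58, against 8.36, 8.22, 8.08, 8.14 and 8.34 in control livers. All 4 dosed arrays lay below every control array. The difference was −0.45 log2 units (SE 0.10, 95% interval −0.65 to −0.25, limma adjusted p = 0.0232), or 26.9% lower on the linear scale. The lower doses did not lead up to it: group means were 8.26 at 0.1, 8.16 at 1, 8.15 at 10, 8.26 at 100 and 8.13 at 300 mg/kg, and an array at 10 mg/kg read 7.90.

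The call rests on a single probe set and a few arrays. The other Tfpi probe set read 6.34, 6.45, 6.47 and 6.35 at 500 mg/kg, against 6.65, 6.56, 6.42, 6.60 and 6.43 in control livers, with overlap and a difference of −0.13. The signals of the Tfpi probe sets had r = 0.62 over the 29 liver arrays (0.57 with group means subtracted), a description over arrays that share their normalization. The mean over both gave −0.29 (adjusted p = 0.100), and leaving out any 1 of 4 arrays (control replicate 1 or 5, 500 mg/kg replicate 1 or 4) also ended the call, with adjusted p up to 0.0802 and differences of −0.39 to −0.50 over all 9 omissions. Endothelial markers, the transcripts of the cells that make most Tfpi, counted 0 of 9 called and 8 of 9 below control at 500 mg/kg (median −0.10), with summed levels of 3178 to 3485 against 3341 to 3840 in controls, and their part in the Tfpi result was not tested.

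**Figure D2:**
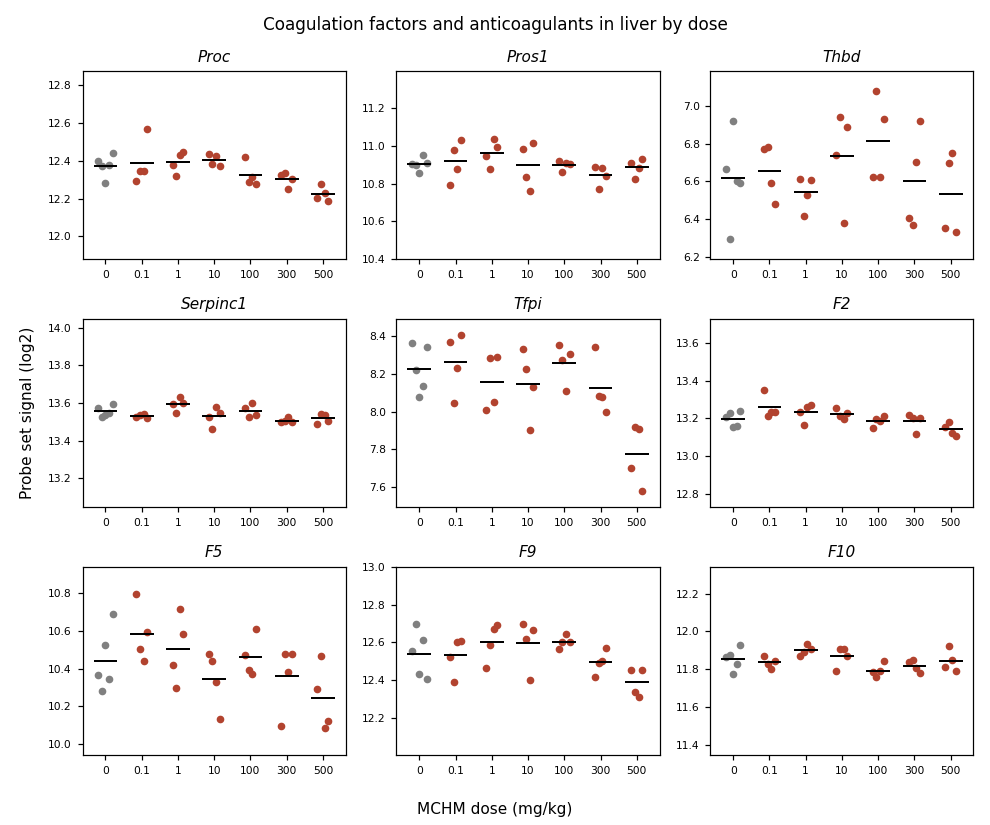
Probe set signal (log2) of 9 members on each liver array by MCHM dose (mg/kg), with a point per array and a bar at the group mean. Each panel is centred on its own gene, with the same span of log2 units in all 9. Tfpi at 500 mg/kg, 7.58 to 7.92, lies below all 5 control arrays, and Proc at 500 mg/kg, 12.19 to 12.28, lies just below its controls.

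Protein C, the zymogen of the protease that destroys factors Va and VIIIa, had the next smallest p in liver. Its arrays at 500 mg/kg read 12.20, 12.28, 12.23 and 12.19, against 12.40, 12.37, 12.28, 12.38 and 12.44 in control livers. The highest dosed array and the lowest control were 12.28 to 2 decimals, with the dosed array lower. The difference of −0.15 (SE 0.05, interval −0.24 to −0.06) had an adjusted p of 0.105 and was not called.

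Factor IX read 12.45, 12.34, 12.31 and 12.45 at 500 mg/kg, against 12.55, 12.69, 12.43, 12.61 and 12.41 in control livers, with overlap (difference −0.15, SE 0.06, adjusted p = 0.261). Factor V, cofactor of factor Xa and a substrate of activated protein C, read 10.29, 10.47, 10.09 and 10.12 at 500 mg/kg, against 10.37, 10.28, 10.53, 10.34 and 10.69 in control livers (difference −0.20, SE 0.10, adjusted p = 0.389). For both genes the intervals allowed a fall of up to 0.28 (F9) and 0.41 (F5) log2 units.

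The other members moved little. At 500 mg/kg the differences were −0.08 for Thbd, −0.06 for F2, −0.04 for Serpinc1, −0.02 for Pros1 and −0.01 for F10. The spread between arrays set very different limits: the residual SD in liver was 0.03 for Serpinc1 and 0.21 for Thbd. For Serpinc1 the interval was −0.09 to 0.02, and for Thbd −0.36 to 0.19. At 300 mg/kg all 4 Serpinc1 livers lay below every control liver, by a narrow margin, and Serpinc1 was not called. Full separation from controls was thus not confined to the called member. The share of all genes that separated fully is not given here, so how common it is cannot be weighed, in liver or in kidney. The remaining Thbd probe sets were under the filter in both organs.

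All 9 members lay below their control mean at 500 mg/kg, with a median difference of −0.08, where 48.2% of all genes lay below 0 and the median of all genes was 0.01. At 300 mg/kg all 9 were again below 0, with a median of −0.05 against −0.01 over all genes. Both doses share the control arrays, so these are not separate observations. The lean at 500 mg/kg was not particular to the members. Below 0 were 7 of 8 fibrinogen, contact and other coagulation factors, 9 of 10 other anticoagulants and 7 of 8 fibrinolysis genes. So were 9 of 12 genes of the vitamin K cycle and processing, 4 of 4 receptors and 4 of 9 hepatocyte transcription factors. Markers of other liver cells lay lower in the same livers at 500 mg/kg. Of the Kupffer cell and macrophage markers 6 of 6 were below control (median −0.27, 0 called), with summed levels of 2719 to 3921 against 3505 to 4107 in controls. Of the stellate cell and fibroblast markers 6 of 7 were below control (median −0.24, 0 called), with summed levels of 2282 to 2859 against 2444 to 3403 in controls. The hepatocyte markers had a median of −0.06. The part of these cells in the members' differences was not tested. At 100 mg/kg 4 of the 9 members were below 0, and at 0.1, 1 and 10 mg/kg 3, 2 and 4 were. Over the 29 liver arrays, with group means subtracted, the 36 pairs of members had correlations of −0.35 to 0.46 with a median of 0.10.

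The slope over dose ranks (0 to 6, from control to 500 mg/kg) was below 0 for all 9 members, with 0 called against 1.84% of all genes (1.17% lower and 0.674% higher). Proc had a slope of −0.02 per rank (SE 0.01, adjusted p = 0.0514) and Tfpi −0.05 (SE 0.02, adjusted p = 0.0693). With dose entered in mg/kg instead of rank, 4 members were called (F2, F9, Proc and Tfpi, all falling), where 813 of all genes were called instead of 208.

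In kidney, 7 members were tested, as F9 and F10 were at background. Protein C fell at 300 mg/kg and was the only member called there, against 0.0268% of 11204 genes called (0.0179% lower and 0.00893% higher). At 500 mg/kg 0 members were called, against 0.0268% of genes, all of them higher. At 0.1, 1, 10 and 100 mg/kg 0 members and 0% of genes were called. The 28 member differences at those doses ran from −1.06 (F5 at 10 mg/kg) to 0.44 (Thbd at 1 mg/kg). With an unadjusted p under 0.05 the members counted 1 at each of 0.1, 1, 10 and 300 mg/kg, 0 at 100 mg/kg and 2 at 500 mg/kg. Between 4.81% (100 mg/kg) and 9.58% (500 mg/kg) of all genes did so. By this count 300 mg/kg did not differ from the 3 lowest doses. The kidneys at 300 mg/kg read 8.27, 8.30, 8.30 and 8.17 for Proc, against 8.71, 8.55, 8.89, 8.80 and 8.90 in control kidneys. The groups did not overlap. The difference was −0.51 log2 units (SE 0.09, interval −0.70 to −0.32, adjusted p = 0.0280), or 29.9% lower on the linear scale.

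At 500 mg/kg kidney Proc read 8.39, 8.58, 8.32 and 8.26, with 3 of 4 arrays below every control and a difference of −0.38 (SE 0.09, interval −0.57 to −0.19, adjusted p = 0.0831). Without the arrays that stood apart (the adipose pair, the hepatocyte one, or all 3) it was −0.44 to −0.36 with adjusted p of 0.0957 to 0.498. The lower doses stayed close to control, with means of 8.91 at 0.1, 8.82 at 1, 8.87 at 10 and 8.75 at 100 mg/kg beside 8.77 in controls. Over the dose ranks Proc fell by 0.09 per rank (SE 0.02, adjusted p = 0.0340), among 4 falling genes called (0.0357%, of 0.152% called in all and 0.116% higher).

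The size of the Proc difference held better than its call. Without both arrays of high adipose transcripts, on which Proc read 8.30 and 8.32, the 300 mg/kg difference was −0.52 (adjusted p = 0.208). Without the control array of hepatocyte transcripts, where Proc was the lowest of the controls at 8.55, it was −0.57 (adjusted p = 0.0239), and without all 3 it was −0.58 (adjusted p = 0.0924). Leaving out single arrays gave −0.48 to −0.57, with the call kept in 1 of 9 omissions (control replicate 2) and lost in the other 8, with adjusted p up to 0.235. The rank trend lost its call without both arrays of high adipose transcripts (adjusted p = 0.246) and without all 3 (adjusted p = 0.0821), and kept it without the control array of hepatocyte transcripts (adjusted p = 0.0125). Proximal tubule markers at 300 mg/kg had a median difference of 0.04 with 0 of 5 called (21098 to 24046 summed units, against 16977 to 24049 in controls), and their part was not tested.

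**Figure D3:**
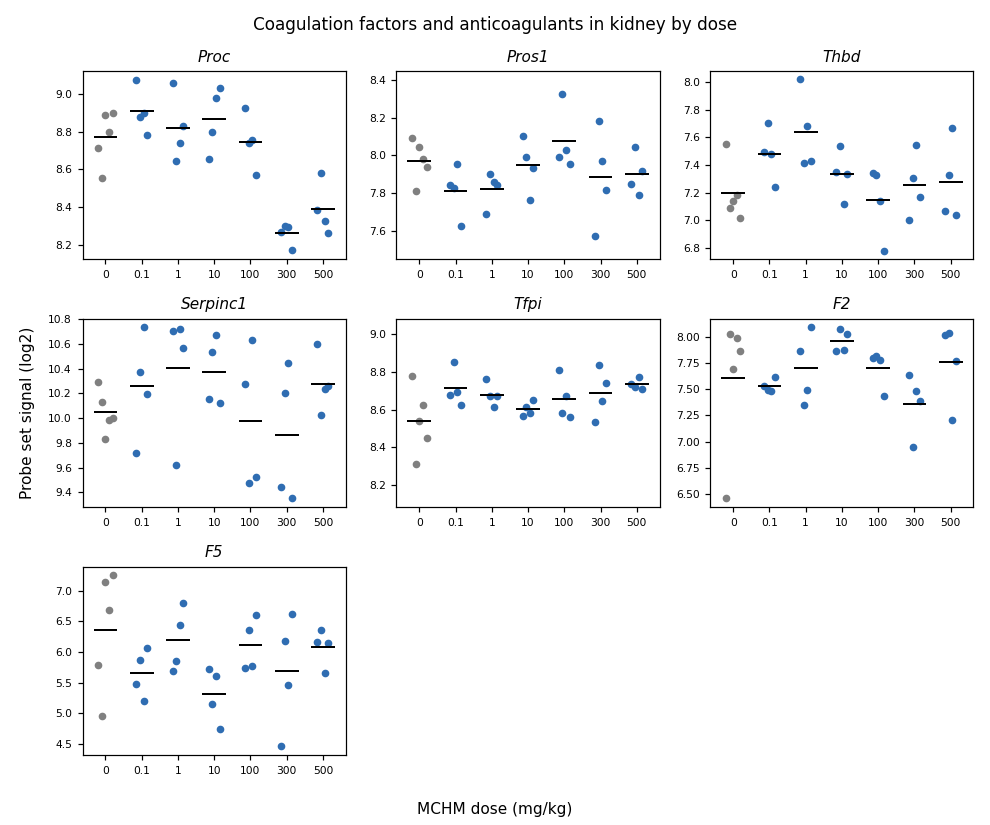
Probe set signal (log2) of the 7 members above the filter in kidney, by MCHM dose (mg/kg), with a point per array and a bar at the group mean. Each panel is centred on its own gene, and spans more log2 units where the arrays spread widely. Proc lies between 8.17 and 8.58 at 300 and 500 mg/kg and between 8.55 and 9.07 at the other doses, while F5, F2 and Serpinc1 scatter widely within groups.

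Kidney Tfpi read 8.74, 8.72, 8.77 and 8.71 at 500 mg/kg, against 8.78, 8.31, 8.54, 8.63 and 8.45 in control kidneys. The dosed arrays sat within the control range, near its top, with a difference of 0.19 (SE 0.07, adjusted p = 0.367). The other Tfpi probe set averaged 6.39 at 500 mg/kg and 6.30 in control kidneys. Over the 29 kidney arrays the signals of the Tfpi probe sets had r = 0.07 (0.14 with group means subtracted), so they hardly ran together there. Kidney antithrombin read 10.60, 10.02, 10.24 and 10.26 at 500 mg/kg, against 10.29, 10.13, 9.83, 9.98 and 10.00 in control kidneys (difference 0.23, SE 0.26, adjusted p = 0.808). At 300 mg/kg its arrays split into 9.44 and 9.35 and, above them, 10.20 and 10.44, with a difference of −0.19 (SE 0.26).

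Factor V, prothrombin and antithrombin were the noisy members in kidney. F5 ranged over 4.46 to 7.26 in the 29 kidneys, with a residual SD of 0.65, where liver had 10.09 to 10.80 and an SD of 0.16. Its difference of −0.68 at 300 mg/kg (interval −1.50 to 0.14) is larger than that of Proc and was not called. F2 had a residual SD of 0.36 in kidney and 0.04 in liver. Pros1 and Thbd had differences of −0.07 and 0.08 at 500 mg/kg. In the 3 fits without the arrays that stood apart, none of the 6 members other than Proc was called at 300 or 500 mg/kg. At 500 mg/kg those fits gave Tfpi at 0.12 to 0.18, Serpinc1 at 0.25 to 0.27, F2 at 0.25 to 0.44 (0.15 with all arrays) and Thbd at −0.08 to 0.05, with its sign not settled. At 300 mg/kg they gave F5 at −1.04 to −0.61 and Serpinc1 at −0.38 to −0.16.

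The difference between organs was tested directly, as the liver effect minus the kidney effect. At 500 mg/kg it was −0.65 for Tfpi (SE 0.12, interval −0.89 to −0.40, adjusted p = 0.00921), the sole member called of 7, where 0.122% of 10673 genes were called, 0.0187% in that direction and 0.103% in the other. It combines the liver difference of −0.45 with the kidney difference of 0.19. Without the 3 kidney arrays that stood apart it was −0.58 (adjusted p = 0.105), and with the mean over both probe sets −0.43 (adjusted p = 0.0705). With the replicate number as a block within each organ it was −0.59 (adjusted p = 0.0652). Taken as liver minus kidney within pairs of the same dose and number it was −0.65 (SE 0.13, adjusted p = 0.0275). For Proc the organ difference was 0.44 at 300 mg/kg (SE 0.10, adjusted p = 0.252) and 0.23 at 500 mg/kg (adjusted p = 0.498), neither of them called. At 0.1, 1, 10, 100 and 300 mg/kg 0 members and 0% of all genes were called.

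**Figure D4:**
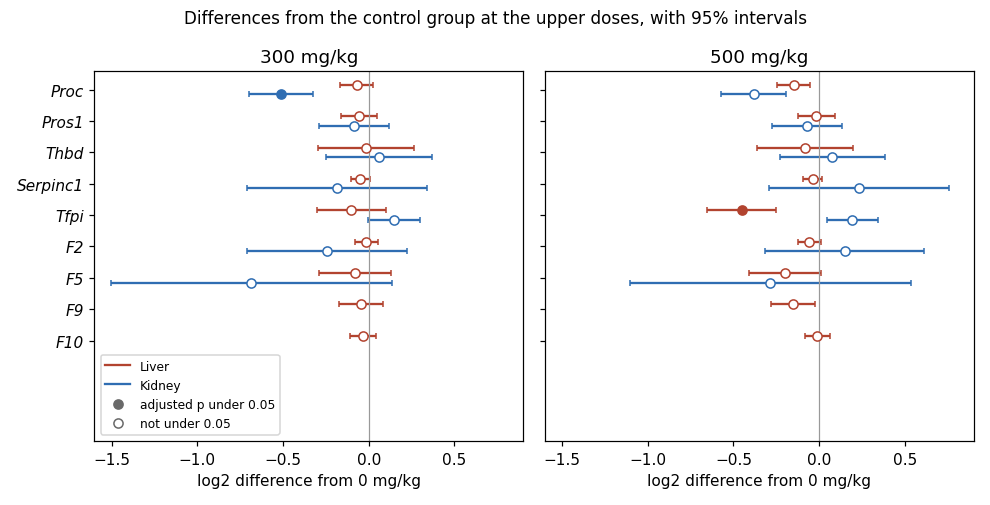
Difference from the control group (log2 units, horizontal axis) for each member at 300 and 500 mg/kg in liver and kidney, with 95% intervals from the fit, filled where the adjusted p over all genes was under 0.05. Tfpi in liver at 500 mg/kg (−0.45) and Proc in kidney at 300 mg/kg (−0.51) are the filled points, and F9 and F10 have no kidney value.

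The neighbouring genes of the pathway were followed as 6 lists. Of the fibrinogen, contact and other coagulation factors, 8 of 14 genes were measured in liver and 0 rose or fell at 500 mg/kg, with a median of −0.08. The fibrinogen chains Fga, Fgb and Fgg, the substrate of thrombin, differed by −0.12, −0.08 and −0.06 and factor VIII (F8) by −0.21 (adjusted p = 0.132 to 0.237). A dimmer Fga probe set passed when every probe set was tested (−0.27, adjusted p = 0.0246). Of 10 other anticoagulants and protease inhibitors measured, 0 passed at 500 mg/kg (median −0.12), among them Serpina10, the inhibitor of factor Xa that works with protein Z (−0.17, adjusted p = 0.0845), heparin cofactor Serpind1 (−0.20, adjusted p = 0.0989) and C4bpb, the chain of C4b-binding protein that carries protein S (−0.12).

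A gene of fibrinolysis did pass. Cpb2 encodes the plasma carboxypeptidase that the thrombin-thrombomodulin complex activates and that protects fibrin from lysis. It was 0.20 log2 units lower at 500 mg/kg (SE 0.04, adjusted p = 0.00902), 1 of 8 genes of its list, and fell along the dose ranks (adjusted p = 0.0145). With 1 probe set per gene, no other gene of the lists was called in liver at 500 mg/kg. Over all genes 0.958% were called at that dose (0.47% lower) and 1.84% along the ranks (1.17% lower). Plau (−0.23), Plg (−0.07) and Serpinf2 (−0.17) did not pass. A2m, the broad protease inhibitor alpha-2-macroglobulin, fell along the dose ranks by 0.18 per rank (SE 0.05, adjusted p = 0.0311). Its livers at 500 mg/kg averaged 8.77 ± 0.58 (SD, n = 4), against 9.85 ± 0.68 in control livers (SD, n = 5), which did not pass (adjusted p = 0.101).

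Of 12 genes of the vitamin K cycle and of factor processing and secretion, 0 passed in liver at 500 mg/kg, with a median of −0.14. They include Calu, an inhibitor of the gamma-carboxylation system (−0.17), Furin, a protease that cuts propeptides (−0.22), Lman1, the cargo receptor for factors V and VIII (−0.22), and Mgp (−0.30). Of 4 thrombin and asialoglycoprotein receptors 0 passed, with F2r, a thrombin receptor, at −0.31 (adjusted p = 0.300), F2rl1 at −0.10, and Asgr1 and Asgr2 at −0.03 and −0.04. Of 9 hepatocyte transcription factors 0 passed, with Cebpa at 0.44 (adjusted p = 0.222), Cebpb at 0.43, Hnf4a at 0.17 and Nr0b2 at −0.52 (adjusted p = 0.422). In kidney none of the 6 lists had a gene called at 300 mg/kg, 500 mg/kg or along the ranks, where over all genes 3, 3 and 17 were called.

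Over the 29 liver arrays the genes most like Tfpi by Pearson's r were Prrc2b (0.77), Serpina6, corticosteroid-binding globulin (0.77), Ctla2a (0.74), Akr1c15 (0.69) and Elovl2 (0.69). Serpina6 and Ctla2a were themselves lower at 500 mg/kg, with differences of −0.58 (adjusted p = 0.00105) and −0.51 (adjusted p = 0.0134). With group means subtracted Prrc2b stayed first for Tfpi (0.71) and the other 4 genes changed. Those most like Proc in liver were Srprb, a subunit of the signal recognition particle receptor (0.81), Hgsnat (0.78), Mettl9 (0.78), Rasa3 (0.76) and Serpind1 (0.76), and Srprb was again among the first 5 with group means subtracted (0.78). These correlations describe arrays that share dose groups and normalization.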

How the data were processed

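The deposited table holds log2 values for 31099 probe sets on 58 arrays, made with RMA per the submitters' processing notes, which give no version. The authors' other steps are not given in the sources used here. Gene names came from the platform's annotation. Probe sets above their array's 40th percentile (Affymetrix controls left out) on at least 4 arrays of an organ were kept, and the brightest per gene was tested. Doses were set against their own organ's controls in limma 3.58.1 (R 4.3.3; lmFit, eBayes with intensity trend), in 1 fit per organ over 29 arrays. The organ contrasts came from a 14-group fit. Calls needed an adjusted p (Benjamini-Hochberg, all genes, two-sided) under 0.05, and p-values measure the spread between labelled biological replicates. An array has no read depth, and the number of arrays limits precision. The fits were tested on simulated data. The 10 members, the gene lists and the rules for naming genes were chosen with earlier results of these data known: named were all members, array by array for called members and those of smallest p, and per list the called genes and up to 4 of smallest p in liver at 500 mg/kg, with the 5 most correlated genes for 2 members. Organ contrasts below 300 mg/kg, the omissions of kidney arrays and the differences within liver and kidney pairs were added after the data had been seen.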

Additional observations from a re-analysis of the deposited data

Results flagged for a closer look

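The Tfpi effect of 500 mg/kg differed between liver and kidney by −0.65 log2 units, by the test of the difference itself. In 112 groups of 4 or 5 arrays (a member in an organ at a dose), 5 had an array far from the rest of its group, where chance gives about 1 in 20. F2 read 13.35 on replicate 1 of the 0.1 mg/kg livers (others 13.21 to 13.24) and 13.12 on replicate 3 of the 300 mg/kg livers (others 13.20 to 13.22). In kidney F2 read 7.43 on replicate 4 at 100 mg/kg (others 7.78 to 7.82) and 6.46 on replicate 1 of the controls (others 7.69 to 8.03). Serpinc1 read 9.62 on replicate 2 of the 1 mg/kg kidneys (others 10.57 to 10.72).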

How the results depend on the processing

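Counts of members called kept to within 1.5 times under every alternative at 0.1 to 100 mg/kg and at 300 mg/kg in liver. So did those of the organ contrast at 300 mg/kg and of untreated liver against kidney. The last count was 9, or 8 with the mean over probe sets, and includes F9 and F10, whose pass was set by the filter. In that comparison 77.2% of all genes were called. The Tfpi count at 500 mg/kg in liver (1) went to 0 with the mean over probe sets, only the compared groups or the replicate block, and to 2 with array weights (Proc added); leaving out an array gave 0 to 1. The liver trend (0) went to 1 with the 60th percentile filter and to 4 with linear dose; omissions gave 0 to 2. Kidney Proc at 300 mg/kg (1) went to 0 with all probe sets, eBayes without trend, array weights, the replicate block, only the compared groups, and without both arrays of high adipose transcripts or all 3 arrays that stood apart; omissions gave 0 to 1. At 500 mg/kg in kidney (0) array weights and quantile normalization gave 1, Proc. The kidney trend (1) went to 0 with the replicate block and without those 2 or 3 arrays; omissions gave 0 to 1. The organ contrast at 500 mg/kg (1) went to 0 with the mean over probe sets, the replicate block and without those 3 arrays; omissions gave 0 to 1. Sign was followed for Tfpi in liver (500 mg/kg, trend) and in the organ contrast at 500 mg/kg, and did not change. The same held for Proc in liver (500 mg/kg, trend) and in kidney (300 mg/kg, 500 mg/kg, trend). Other member differences were not followed in this way. Without the arrays that stood apart, Thbd in kidney at 500 mg/kg ran from −0.08 to 0.05. The cause of these changes was not tested.

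At 0.1 mg/kg in kidney the count over all genes of 0 was 6 with array weights, and at 300 mg/kg in liver the count of 3 ran over 0 to 6. Over all genes the liver 500 mg/kg count of 108 ran from 33 (replicate block) to 263 (array weights), with 58 without trend and 65 with only the compared groups. The liver trend count of 208 was 813 with linear dose. The kidney counts of 3, 3 and 17 at 300 mg/kg, 500 mg/kg and in the trend ran over 0 to 4, 0 to 69 and 0 to 185, and the organ contrast count of 13 over 2 to 84. With all probe sets the untreated organs gave 15750 calls instead of 9107.

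Replicate numbers within an organ did not pair arrays (median r of same-numbered deviations 0.006 in liver, 0.008 in kidney). Between liver and kidney of the same dose and number, 21 of 29 pairs were above 0.1 (median 0.16), and 27 of 29 livers correlated best with their own number, a hint from the data. With dose and number as a random block the Tfpi organ contrast had an adjusted p of 0.00501, from differences within those pairs −0.65 (0.0275), and with number as a fixed replicate block within each organ −0.59 (0.0652). With the block in liver Tfpi was −0.42 (adjusted p = 0.0690), and in kidney Proc was −0.48 at 300 mg/kg (0.197) and fell by 0.09 per rank (0.0632). For untreated liver against kidney the fixed block within each organ was not run, since it takes up the organ term. The differences within pairs called all 7 members above the filter in both organs. In the main fit 76.1% of all such genes were called, and F9 and F10 are not counted here.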
